A study of Mus musculus with 14 samples.

Results

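The accessible chromatin of Reactivated neurons was compared with that of Early neurons in mouse hippocampus, to ask how far the chromatin found after recall of a fear memory repeated that found after its formation. The assay was ATAC-seq: a transposase inserts sequencing adapters where DNA is open, and reads pile up over open regions. The deposited matrix lists 191271 regions of the mm9 build with values in 14 libraries, and the 172024 regions (89.9%) whose mean over the 14 libraries was at least 0.83 RPKM were examined. RPKM is reads scaled to the length of the region and to the depth of the library. At the edge of this threshold, the 1000 regions just inside had a median log2 difference between Reactivated and Early of 0.05, and the 1000 regions just outside one of 0.10.

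All 14 libraries came from ArcCreERT2 × R26R-STOP-floxed eYFP mice labelled +/+, in which cells that express Arc while 4-hydroxytamoxifen is present are marked for good with a fluorescent protein. The mark is thus tied to the Arc promoter and to the hours around the injection. Every group received 4-hydroxytamoxifen 1 h before conditioning, and the foot shock was given on day 0. Early (3 libraries) was collected on day 0 with no recall. Reactivated (3 libraries) had a recall session on day 5 and carries collection days 5, 6 and 7 for replicates 1, 2 and 3, so that replicate and day cannot be told apart. The series' text states 3 biological replicates, while Basal and Late have 4 libraries each, all used as separate samples. Basal (day 0) carries the same treatment label as Early, and Late was collected on day 5 with no recall. Nuclei were sorted after staining for NeuN, Arc and GFP, and the series' text gives 10000 nuclei per condition from 10 to 12 pooled mice. Since animals were pooled, p-values measure the spread between libraries and not between animals. The limma fit took its spread from all 14 libraries. The labels do not settle whether each library was a separate pool. No ages are used here. The file gives positions and no gene names, and no annotation of its build was used, so the neuronal label could not be checked against marker genes and regions are named by position alone.

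Arc is an immediate early gene: neurons that fire strongly transcribe it within minutes, and its promoter is therefore used to tag the cells active during learning. A memory trace, or engram, is held to be the set of such cells, and recall is thought to engage part of the same set again. Transcription in active neurons is accompanied by opening of enhancers and promoters, and some of that opening can outlast the transcription. In pooled nuclei, more cells with an open region and a wider opening per cell cannot be told apart.

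Read totals, worked back from the RPKM values, were 54257745 to 54261749 in the Early libraries and 54257222 to 56251676 in the Reactivated ones. They were 54266315 to 54269492 in Basal, so most libraries of these 3 groups had nearly equal totals. The Late libraries had fewer, 46134253 to 47375212. The listed regions held 13.8%, 27.8% and 18.1% of the reads in Early 1, 2 and 3, and 24.0%, 21.3% and 23.9% in Reactivated 1, 2 and 3. Early 2 stood above every Reactivated library and the other Early libraries below all of them. The means were 23.1% ± 1.54 (SD, n = 3) for Reactivated and 19.9% ± 7.15 (SD, n = 3) for Early, a difference of 3.15 percentage points that did not exceed the spread (exact permutation test, two-sided, p = 0.6; 0.1 is the smallest p that 3 against 3 allows). Median RPKM over the tested regions was 1.07, 1.84 and 1.30 in the Early libraries and 1.56, 1.41 and 1.54 in the Reactivated libraries. The Early libraries also varied more among themselves. The median within-group SD of log2(RPKM + 0.5) was 0.43 in Early and 0.27 in Reactivated, and without Early 2 it was 0.25 in the remaining Early pair. Early had the larger SD at 71.5% of regions, and at 58.0% after each column was divided by its own median. Across the tested regions, Reactivated libraries correlated with each other at r between 0.653 and 0.733, with Early 2 at 0.581 to 0.687, with Early 3 at 0.468 to 0.540 and with Early 1 at only 0.227 to 0.252. Early 1 and Early 2 correlated at 0.382. These are descriptions over 172024 regions that share libraries, widths and depth.

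Few single regions passed the test between Reactivated and Early neurons. Of the regions tested, 1624 (0.944%) were higher and 717 (0.417%) lower in Reactivated (limma, Benjamini-Hochberg adjusted p below 0.05). At an unadjusted p below 0.05 (limma), 13.2% were higher and 6.26% lower. After each column was divided by its median, which removes the difference in overall height between libraries, 4395 regions (2.55%) were higher and 1706 (0.992%) lower. Of the 1624 and 717 regions, 1541 and 693 were called the same way on the divided values and 0 the opposite way. All 3 Reactivated libraries lay above all 3 Early libraries at 10.6% of regions and below them at 6.28%, or 14.1% and 9.33% on the divided values. The median log2 fold change was 0.11 as deposited (0.31 without Early 2, -0.04 without Early 1) and 0.01 divided, so the surplus of positive differences (60.2% of regions) fell to 51.4%. The middle 50% of regions lay between -0.18 and 0.39 as deposited, and 90% between -0.63 and 0.80.

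Both counts, and the class and named-region counts drawn from them, hung on the fit and on single libraries. With the 4 Late libraries averaged to 1 sample 8 regions were higher and 5 lower, and in a fit of the 6 compared libraries 457 and 403. Without Early 2, 24885 regions were higher and 4869 lower in Reactivated, but without Early 1 only 4 and 2 were, without Early 3 31 and 17, without Reactivated 1 27 and 65, without Reactivated 2 455 and 138, and without Reactivated 3 59 and 36. Early 2 was the Early library nearest to the Reactivated ones in 1147 of the 1624 higher regions and in 368 of the 717 lower ones. These counts were not set against all tested regions, over which Early 2 had the highest Early median (1.84 RPKM), so they are not a trait of the called regions. In a simulation of the same size with few changed regions (50 for each fold), the test recovered 80% of 4-fold and 0% of 2-fold changes. The simulated libraries shared a common spread and had no library-wide shifts, unlike the Early libraries, so these rates are not the power in these data.

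Among called regions of above-median level whose groups did not overlap, the 12 with the largest rises ran from a log2 fold change of 1.92 to 1.67, and 11 of them were also called on the divided values. At chr10:80635955-80636100, a region of 145 bases, Early 1, 2 and 3 had 0.636, 1.65 and 1.91 RPKM and Reactivated 1, 2 and 3 had 9.32, 4.45 and 6.10 RPKM. Reactivated 1 was the highest and Early 1 the lowest, and the log2 fold change was 1.92 ± 0.32 (SE; limma adjusted p = 0.0224). Basal libraries there held 3.49 ± 0.554 RPKM (SD, n = 4) and Late libraries 3.47 ± 0.770 (SD, n = 4), above each Early library. At chr6:3150778-3151666, the widest of the 12 at 888 bases, the Early libraries had 1.43, 1.41 and 1.20 RPKM and the Reactivated libraries 4.34, 7.41 and 6.68. The log2 fold change there was 1.82 ± 0.26 (SE; limma adjusted p = 0.00963), and the means of Basal (3.44 ± 0.129 RPKM, SD, n = 4) and Late (2.35 ± 0.223 RPKM, SD, n = 4) lay between those of the compared groups.

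Of these 12 regions, 4 lay on chromosome 7. At chr7:51697256-51697405 the Early libraries held 0.618, 0.866 and 0.495 RPKM and the Reactivated libraries 4.30, 2.60 and 3.71 (log2 fold change 1.79 ± 0.26, SE, limma adjusted p = 0.00963). Basal was near Reactivated at 3.15 ± 0.618 RPKM, and Late lay between at 1.62 ± 0.243. At chr7:148748905-148749022 the Early libraries held 0.315, 0.158 and 0.630 RPKM, the least of the 12, and the Reactivated libraries 3.95, 2.21 and 2.21. The region chr7:26026100-26026354 had 0.290, 0.290 and 1.23 RPKM in Early and 3.22, 2.90 and 2.39 in Reactivated. At chr7:4039781-4039938, with 0.470, 1.53 and 0.117 RPKM in Early and 4.08, 1.88 and 3.17 in Reactivated, the call was lost on the divided values (limma adjusted p = 0.0503). The others were chr9:35112799-35113174, chr19:5459116-5459330, chr8:73325193-73325401, chr17:34052725-34053152, chr14:66857886-66858041 and chr2:29735652-29735857. Over the 12 regions, the Basal mean exceeded the Early mean in 11 and the Late mean exceeded it in 11. The counts behind single values ranged from 1 to 3656 reads.

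The 12 largest falls, chosen in the same way, were all short, from 105 to 215 bases, and rested on 1 to 40 reads per Early or Reactivated library. All 12 were also called on the divided values. At chr14:99269031-99269171 the Early libraries had 3.95, 3.29 and 3.16 RPKM and the Reactivated libraries 0.508, 0.658 and 0.922, a log2 fold change of -1.74 ± 0.26 (SE; limma adjusted p = 0.0161). Basal, at 2.99 ± 0.582 RPKM, was close to Early, and Late, at 1.68 ± 0.465, lay between. At chr15:65002484-65002624 the Early libraries had 3.82, 2.37 and 2.50 RPKM against 0.508, 0.658 and 0.527 in Reactivated. Late libraries there spread from 0.152 to 1.39 RPKM, over the whole Reactivated range. At chr2:109778902-109779010 Early held 5.63, 3.24 and 4.61 RPKM and Reactivated 0.658, 1.37 and 1.19, with Late at 0.991 ± 0.458 RPKM, level with Reactivated. The largest fall was at chr10:124436193-124436298 (4.39, 2.63 and 3.51 RPKM in Early; 1.02, 0.527 and 0.176 in Reactivated; log2 fold change -1.96 ± 0.31, SE). The Late mean was below the Early mean in all 12 regions, while the Basal mean was above it in 2. Of the 24 named regions, 23 lost their call with Late averaged to 1 sample. All 24 kept it without Early 2, but without Early 1 22 lost it (limma adjusted p from 0.0433 to 0.181), without Early 3 15, without Reactivated 1 18, without Reactivated 2 9 and without Reactivated 3 17, with the direction kept in each case.

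**Figure D1:**
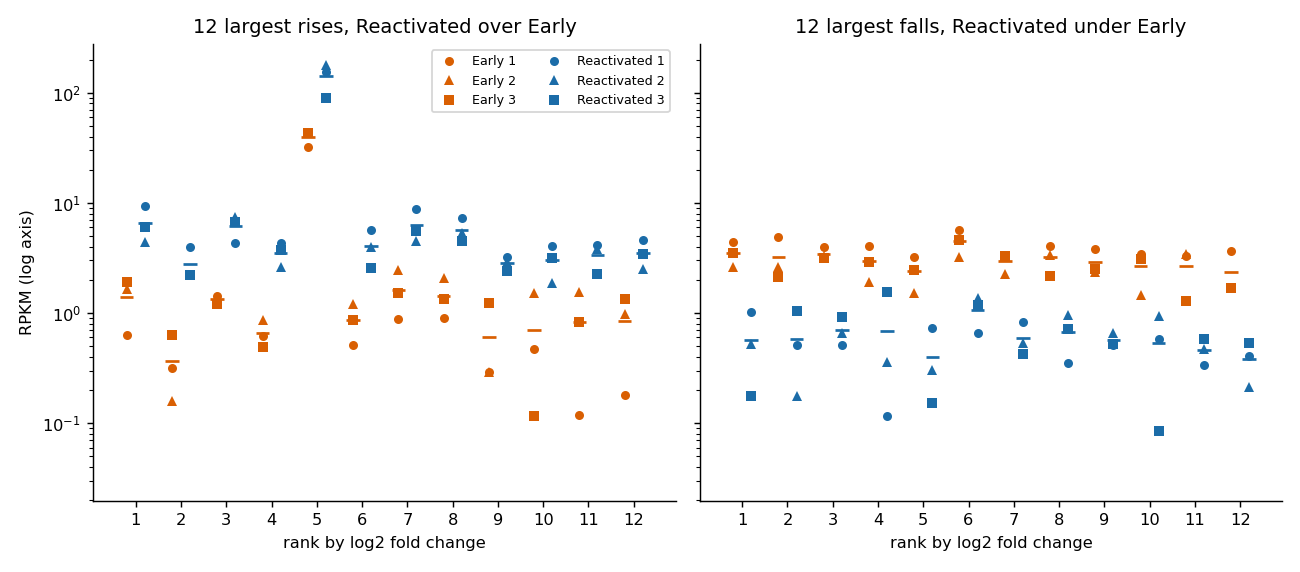
RPKM (log axis) in the 3 Early and 3 Reactivated libraries at the 12 regions with the largest rise (left) and the 12 with the largest fall (right), ranked by log2 fold change, among called regions chosen to have above-median level and groups that do not overlap. Points are libraries and short lines are group means. The gap between the groups follows from that choice. The region ranked 5 on the left, chr9:35112799-35113174, stands at 39.4 RPKM in Early and 141 RPKM in Reactivated on average.

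Width separated rises from falls. Called higher regions had a median width of 639 bases and called lower regions one of 257 bases, against 529 bases over all tested regions. Of the lower regions, 91.9% were under 500 bases, as were 47.0% of all tested regions. In regions under 200 bases, 0.864% were higher and 1.38% lower in Reactivated. In regions of 1000 to under 2000 bases, 1.41% (399) were higher and 1 region was lower, and of the 2580 regions of 2000 bases or more 32 were higher and 0 lower at adjusted p (limma; 5 lower at an unadjusted p below 0.05, and 0 with voom weights). The median log2 fold change rose with each step in width, from -0.06 under 200 bases (positive under 1 of 24 settings) through 0.02, 0.13 and 0.24 to 0.29 at 2000 bases or more. Dividing by the column median shifted these to -0.16, -0.07, 0.04, 0.14 and 0.18 and kept their order.

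Library by library, the width classes differed as follows once each library's own median was subtracted. At 2000 bases or more, the class median stood 0.15, 0.29 and 0.26 above the library median (log2) in Early 1, 2 and 3 and 0.39, 0.43 and 0.47 above it in Reactivated 1, 2 and 3. The groups did not overlap (exact permutation p = 0.1, the smallest possible; 0.243 adjusted over 34 classes). Under 200 bases they did overlap, with Early at 0.33, 0.02 and 0.21 and Reactivated at 0.01, 0.14 and -0.10. Basal and Late differed by width too, so such a difference is not particular to this comparison. At 2000 bases or more Basal libraries stood at 0.33 to 0.53 and Late libraries at 0.19 to 0.22. Under 200 bases Basal stood at 0.32 to 0.35 and Late at -0.01 to 0.03. Short regions carry few reads, and the relation of read number to these differences was not tested.

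Level and spacing sorted the rises as well. Regions were cut into quintiles by their mean over the Basal and Late libraries, which enter neither side of the comparison. From the lowest to the highest quintile, 0.497%, 0.581%, 0.741%, 1.03% and 1.87% of regions were higher in Reactivated, while the lower calls stayed between 0.244% and 0.584%. In the top quintile, the median of the regions stood 0.41, 0.70 and 0.56 above the library median in Early 1, 2 and 3 and 0.78, 0.66 and 0.73 above it in Reactivated. Early 2 lay above Reactivated 2 here, so the groups overlapped (exact permutation p = 0.2). The rise with width was seen on either side of this level split. Among regions of the top quintile the median log2 fold change went from -0.12 under 200 bases to 0.42 at 1000 to under 2000 bases and 0.34 at 2000 bases or more, and in the other quintiles from -0.02 to 0.15 and 0.22.

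Isolated regions rose more often than crowded ones. With a gap to the nearest listed region of under 1000 bases 0.753% were higher, with 1000 to under 10000 bases 0.863%, with 10000 to under 50000 bases 1.48%, and with 50000 bases or more 2.70% (23 of 853). The class medians of the log2 fold change were 0.07, 0.11, 0.17 and 0.29 as deposited and -0.02, 0.01, 0.08 and 0.21 divided. Relative to library medians, however, every spacing class overlapped between the groups, with Early at -0.27, 0.07 and -0.14 and Reactivated at 0.10, 0.01 and 0.07 in the most isolated class. The order from crowded to isolated was present on chromosomes 7, 11, 17 and 19 (medians 0.29, 0.31, 0.38 and 0.44) and on the other chromosomes (0.06, 0.09, 0.13 and 0.22).

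**Figure D2:**
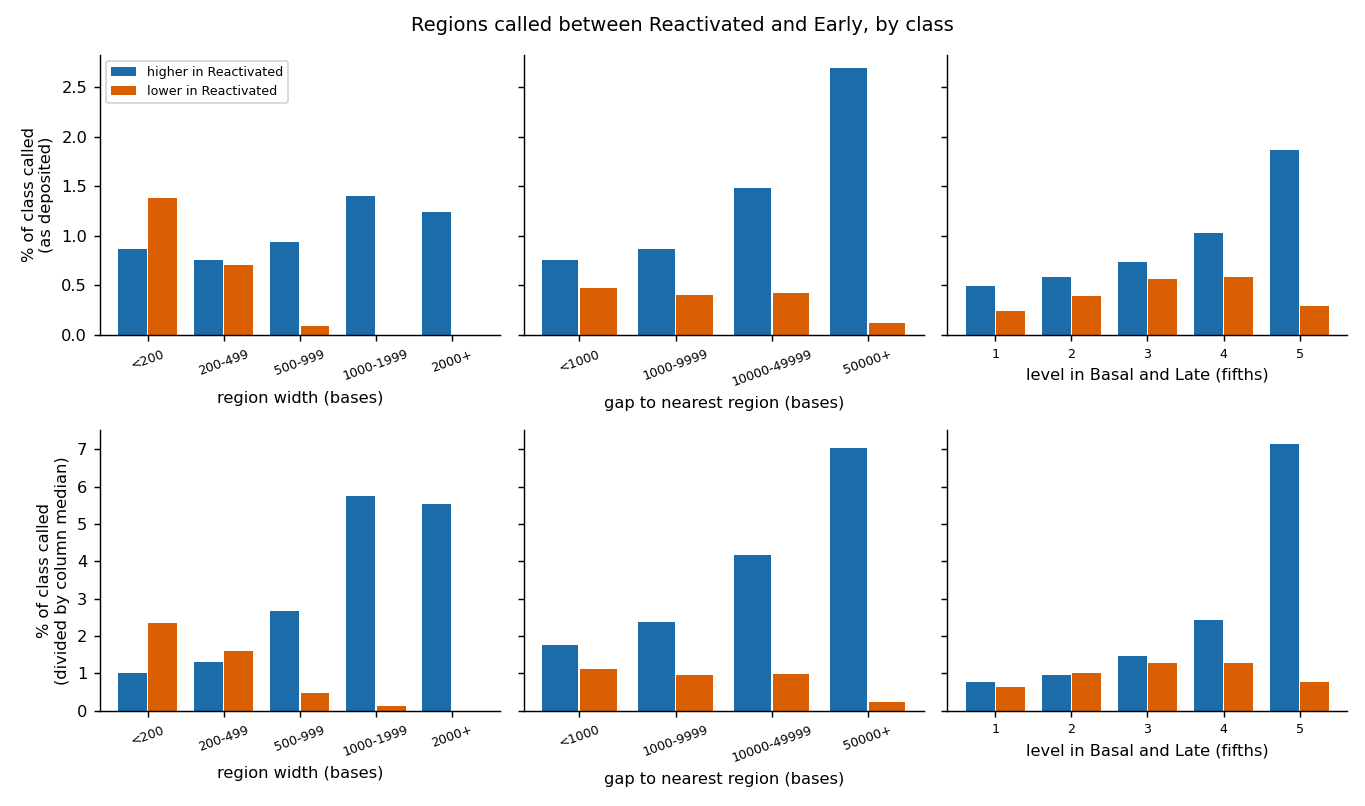
Percent of regions called higher (blue) or lower (orange) in Reactivated than in Early, by region width, by gap to the nearest listed region, and by quintiles of the mean level in Basal and Late libraries, on deposited values (top) and on values divided by the column median (bottom; the percent axes of the rows differ). Falls sit in the narrow classes, with 1.38% of regions under 200 bases and 1 region of 28364 at 1000 to under 2000 bases, and rises grow with isolation and level.

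The calls were spread unevenly over the chromosomes. Chromosome 7 held 294 higher regions and 1 lower region of 3422 tested (8.59% higher), a median log2 fold change of 0.52, and 0.43 on the divided values. Chromosome 17 followed with 136 higher and 2 lower of 3477 (3.91%, median 0.38), chromosome 11 with 229 and 12 of 7556 (3.03%, median 0.26) and chromosome 19 with 81 and 3 of 3069 (2.64%, median 0.18, positive under 22 of 24 settings). These 4 chromosomes carried 45.6% of the higher regions and 2.51% of the lower ones, with 10.2% of all tested regions. Chromosomes 1, 3, 6, 10, 13, 14 and 18 had more lower than higher calls as deposited, from 0.447% to 0.740% lower, though on the divided values chromosome 1 (182 higher, 181 lower) and chromosome 10 (192 and 182) did not. Chromosome 3 had a median of -0.01.

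On chromosome 7 the median region lay 0.39, 0.35 and 0.21 under the library median (log2) in Early 1, 2 and 3, a relative value of -0.39, -0.35 and -0.21. In Reactivated 1, 2 and 3 it lay above, at 0.23, 0.06 and 0.03. Basal 1 to 4 were at 0.24, 0.08, 0.16 and 0.15 and Late 1 to 4 at -0.07, 0.05, -0.07 and 0.03. Every Basal and Late library was thus above every Early one, and Reactivated lay within their range. Early 2, whose median over all tested regions was above that of every Reactivated library, was here with the other Early libraries. Median RPKM on chromosome 7, averaged over the libraries of a group, was 1.03 in Early and 1.67 in Reactivated, against 1.40 and 1.51 over all tested regions. The groups did not overlap (exact permutation p = 0.1; 0.243 adjusted over 34 classes). The median log2 fold change of the chromosome was positive under all 24 settings tried, between 0.35 and 0.75. Within chromosome 7 it was 0.39, 0.38, 0.48, 0.57 and 0.74 from the lowest to the highest level quintile, and 17.9% of its top-quintile regions were called higher.

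Chromosomes 17, 11 and 16 had the same arrangement in smaller measure. Relative medians were -0.28, -0.16 and -0.19 in Early and 0.14, 0.03 and 0.04 in Reactivated on chromosome 17, and -0.13, -0.06 and -0.05 against 0.15, 0.05 and 0.05 on chromosome 11. On chromosome 17 Basal (-0.02 to 0.06) and Late (-0.06 to 0.03) were above every Early library. On chromosome 11 both lay between the compared groups, from -0.04 to 0.04. On chromosome 16 Basal (-0.14 to -0.05) lay with Early and Late (0.02 to 0.05) with Reactivated. Chromosome 3 was reversed, with 0.13, 0.02 and 0.07 in Early and -0.10, -0.02 and -0.03 in Reactivated. Chromosome 19 overlapped through Early 2 at 0.06, and chromosome X overlapped widely, with Early at -0.26, 0.28 and -0.11. Of 34 classes of width, spacing, level and chromosome, 14 had groups that did not overlap, 7 with Reactivated above and 7 below, and 11 of the 14 were autosomes.

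**Figure D3:**
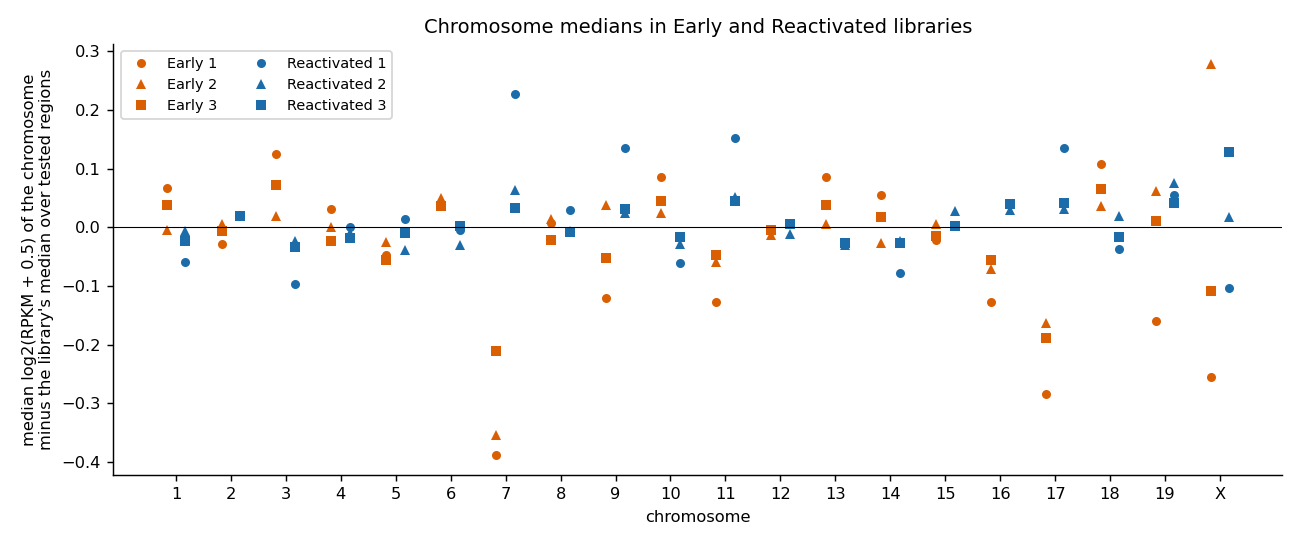
Median log2(RPKM + 0.5) of the tested regions of each chromosome minus the median over all tested regions of the same library, for the 3 Early (orange) and 3 Reactivated (blue) libraries. A value of 0 means that the chromosome is at its library's median. On chromosome 7 the Early libraries lie at -0.39, -0.35 and -0.21 and the Reactivated libraries at 0.23, 0.06 and 0.03, and on chromosome X the groups overlap.

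Across the 19 autosomes, the median log2 fold change ran with the number of protein-coding genes per Mb (r = 0.790, rho = 0.725; gene numbers from RefSeq on another build, GRCm38.p6) and against the number of listed regions per Mb (r = -0.945, rho = -0.956). Chromosome 7 had 26.0 listed regions per Mb and chromosome 3 had 99.6. Gene density and region density themselves ran against each other (r = -0.764). These are descriptions over 19 chromosomes that share the same 6 libraries, and their part in the differences was not tested.

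In windows of 5 Mb with at least 50 tested regions (513 windows), the 3 Reactivated libraries stood above the 3 Early libraries, each relative to its library median, in 198 windows (38.6%), and below them in 171 (33.3%). Window medians of the log2 fold change ranged from -0.29 to 1.00. On chromosome 7, 22 of 24 windows had Reactivated above, and all 24 medians were positive, from 0.15 to 1.00. Of the 20 highest windows, 5 lay on chromosome 7, 5 on chromosome 11, 3 on chromosome 17 and 2 on chromosome 19. The highest window, 15 to 20 Mb on chromosome 7, had relative medians of -0.63, -0.78 and -0.57 in Early 1, 2 and 3 and 0.40, 0.02 and 0.01 in Reactivated, with 36 of its 91 regions called higher. The Basal libraries there were at 0.48, 0.28, 0.57 and 0.50 and the Late libraries at 0.02, 0.32, 0.02 and 0.18. In this window the Early libraries were thus apart from the libraries of the 3 other groups. The same held at 50 to 55 Mb of chromosome 7 (median 0.99, 58 of 134 regions called higher) and at 0 to 5 Mb of chromosome 19 (median 0.95, 23 of 58). In the lowest window, 100 to 105 Mb on chromosome 10, Early libraries were at 0.27, 0.01 and 0.05 and Reactivated at -0.45, -0.25 and -0.24, with Basal between -0.22 and -0.05 and Late between -0.11 and 0.04.

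**Figure D4:**
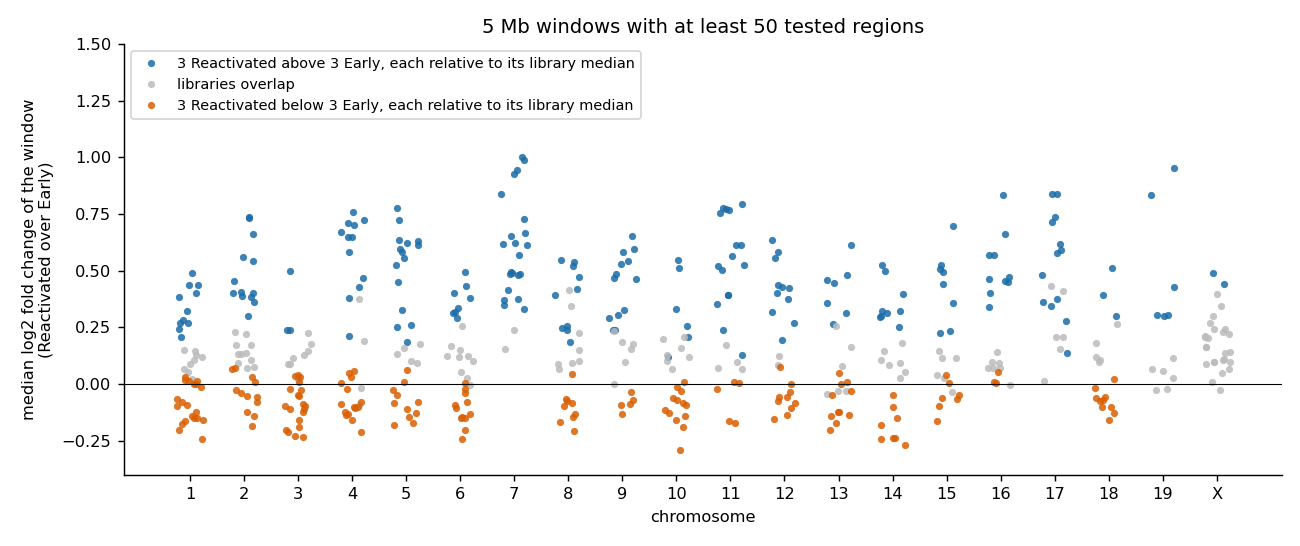
Median log2 fold change of Reactivated over Early in 5 Mb windows with at least 50 tested regions, by chromosome; each point is a window, spread sideways for legibility. Colour gives whether the 3 Reactivated libraries lie above (blue) or below (orange) the 3 Early libraries after each is set relative to its own library median, so some orange points are slightly positive before that subtraction. On chromosome 7 all 24 windows are positive and 22 are blue.

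The regions of highest signal formed 2 patterns. At chr17:39979978-39985726, a region of 5748 bases with the highest mean level, Early libraries held 30.1, 33.6 and 37.7 RPKM and Reactivated libraries 100.04, 87.2 and 90.2 (log2 fold change 1.44 ± 0.37, SE, limma adjusted p = 0.0492). Basal libraries were at 85.8 ± 6.83 RPKM (SD, n = 4), next to Reactivated, and Late libraries at 14.6 ± 0.822, under Early. The region chr11:108872960-108873401 had the same order, with 12.9, 15.2 and 17.8 RPKM in Early, 41.4, 36.8 and 41.8 in Reactivated, 38.4 ± 1.55 in Basal and 10.4 ± 1.01 in Late. In the other pattern Early was level with Basal and Reactivated exceeded both. At chr2:98506396-98507470 Early held 39.4, 47.3 and 47.1 RPKM, Basal 47.7 ± 10.4 (SD, n = 4), Late 4.96 ± 0.325 (SD, n = 4), and Reactivated 165, 164 and 92.9. The order of the group means was the same at chr2:98502391-98503129 and chrX:139917553-139917648. At chr9:35112799-35113174 it differed only in that Early (39.4 RPKM) was slightly above Basal (35.8). The test was not passed at chr2:98502391-98503129 (log2 fold change 1.22, limma adjusted p = 0.0725). Nor was it at chrX:139917553-139917648 (0.74, limma adjusted p = 0.287), where the groups overlapped (Reactivated 3 at 38.4 RPKM and Early 3 at 40.9). The Late libraries were the lowest in all 6 regions. The treatment of reads that map to several places is not given in the sources that were used, and no annotation of repeats was used. Whether the signal at these 6 regions comes from repeated sequence, and not from open chromatin at the listed position, was not tested.

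To ask more directly whether recall repeated the first activation, the first step, Early minus Basal, was set against the recall step, Reactivated minus Late. These steps share no library. Early exceeded Basal at 18824 regions (10.9%) and was lower at 2467 (1.43%). Without Early 2 these counts were 773 and 458, without Early 1 42733 and 3257, without Basal 2 9820 and 1624, without Basal 3 7056 and 1087, and without Basal 4 11962 and 1369. Reactivated exceeded Late at 44 regions (0.0256%) and was lower at 353 (0.205%; limma adjusted p in each case). With single libraries left out these ranged from 9 to 194 and from 142 to 532.

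The regions called higher in Early than in Basal were, at the median, no higher in Reactivated than in Late libraries. Over the 18824 regions, the per-library median was 0.746, 0.642, 0.566 and 0.699 RPKM in Basal 1 to 4, 1.23, 2.96 and 1.56 in Early 1 to 3, 1.80, 1.69, 1.92 and 1.69 in Late 1 to 4, and 1.51, 1.56 and 1.82 in Reactivated 1 to 3. Reactivated libraries lay within or just under the Late range. Late itself was called higher than Basal in 15912 of the 18824 regions (84.5%, against 23.9% of all tested) and lower in 0. Late, from which the recall step is counted, thus stood above Basal at most of these regions, though that call shares the Basal libraries with the choice of the set. The median recall step was -0.07 (log2), against 0.09 over all tested regions, and 40.5% of the regions were positive in it, against 60.8% of all tested. With single libraries left out, the median stayed between -0.14 and 0.01, the last without Early 1, when the set held 42733 regions. Of the 18824 regions, 1 was called higher and 1 lower in Reactivated than in Late. With the set chosen without Early 2 (773 regions) the median recall step was -0.10, with 36.5% positive. Limma called 0 of them in either direction (7 higher and 56 lower at an unadjusted p below 0.05, and 0 with voom weights), in a comparison that called 0.231% of all regions.

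The regions called lower in Early than in Basal leaned the other way. Their per-library medians were 1.67 to 1.99 RPKM in Basal, 0.677, 0.766 and 0.801 in Early, 1.01 to 1.20 in Late and 1.57, 1.27 and 1.27 in Reactivated, so that each Reactivated library was above each Late one. Late itself was called lower than Basal in 1101 of the 2467 regions (44.6%, against 6.03% of all tested) and higher in 13. The median recall step was 0.24, with 76.6% of the 2467 regions positive, and between 0.13 and 0.28 with single libraries left out. Few single regions passed the test, with 6 (0.243%) higher and 3 (0.122%) lower in Reactivated than in Late, against 0.0256% and 0.205% of all tested regions. Conversely, the 44 regions that rose in the recall step had a median first step of -0.12 and the 353 that fell one of -0.03, where all tested regions had 0.23. Over all 172024 regions, the first step and the recall step correlated at r = -0.213 as deposited, -0.235 divided and -0.278 without Early 2, a description across regions that share width, position and depth.

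**Figure D5:**
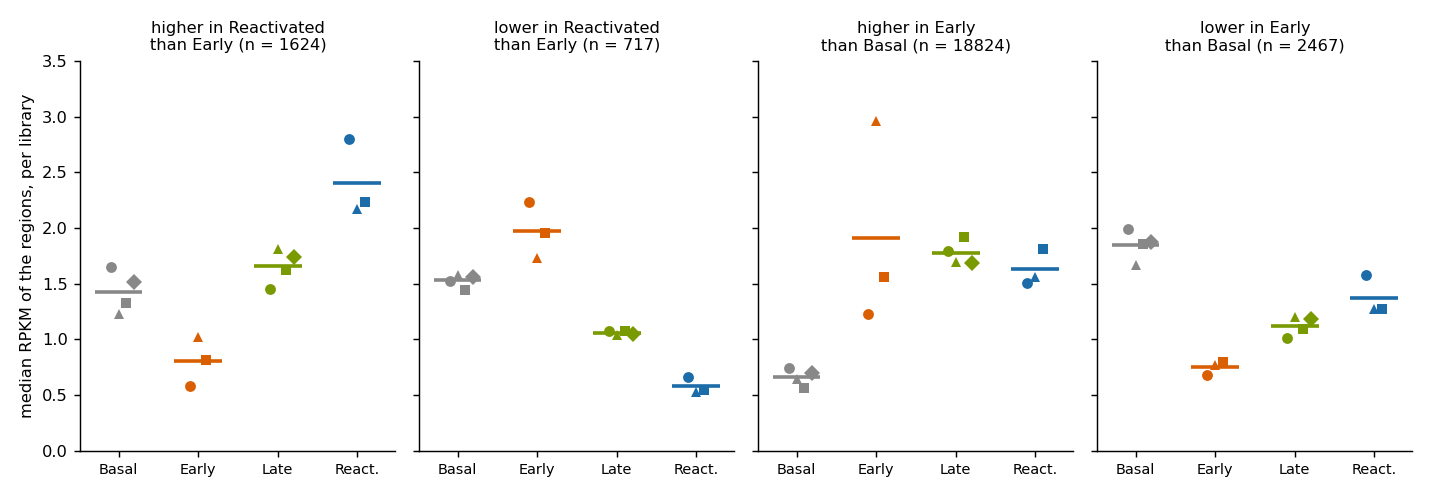
Median RPKM per library, over the regions called higher or lower in Reactivated than Early and over those called higher or lower in Early than Basal; points are libraries of each group (4 Basal, 3 Early, 4 Late, 3 Reactivated) and lines are group means. The 2 groups named above each panel differ by choice of the regions. In the third panel Reactivated, at 1.51 to 1.82, lies with Late, and in the fourth it lies above Late and under Basal.

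The difference between the steps was tested region by region. The recall step exceeded the first step at 1808 regions (1.05%) and fell short of it at 6256 (3.64%) on deposited values, 8064 regions (4.69%) in all. On values divided by the column median, the numbers were 13251 (7.70%) and 10430 (6.06%), so the balance between the directions turned with the scaling. As deposited, Late was called higher than Basal in 93.4% of the 6256 regions (23.9% of all tested). It was called lower in 48.6% of the 1808 (6.03% of all tested). Late and Basal both enter the difference of steps. Without Early 2, 3144 regions had a larger and 2835 a smaller recall step, and without Early 1, 2804 and 20072. With the 4 Late libraries averaged to 1 sample, limma called 0 regions, with 16869 at an unadjusted p below 0.05 (41891 with all libraries).

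At the 6 regions with the most negative difference, Early exceeded Basal while the Reactivated mean was under the Late mean. At chr3:92226809-92227074, Basal libraries had 0.417, 0.348, 0.0695 and 0.278 RPKM and Early libraries 1.67, 5.77 and 3.20. Late libraries then had 2.68, 2.37, 1.91 and 2.57 and Reactivated libraries 1.61, 1.53 and 1.95, so that the recall step was slightly negative (difference of steps -2.66 ± 0.40, SE, limma adjusted p = 0.0068). At chr8:59363111-59363289 the Early libraries had 2.69, 6.01 and 2.80 RPKM and the Basal libraries 2.28, 0.207, 0.104 and 0.414. Late stood at 4.54 ± 0.130 RPKM and Reactivated at 2.76 ± 0.790 (SD), a difference of steps of -2.66 ± 0.53 (SE, limma adjusted p = 0.0162). The 4 others were chr13:14990864-14991052, chr6:67750918-67751070, chr3:110691792-110692046 and chr15:19654330-19654521. Early 2 was the highest Early library in all 6.

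The 6 regions with the most positive difference all stood low in the Late libraries, whose read totals were also the lowest. Whether the low values go with a property of the Late libraries as a group was not tested. One of them, chr3:5860345-5860825, had 22.7 ± 1.93 RPKM in Basal, 6.34, 8.60 and 8.79 in Early, 6.16 ± 0.712 in Late and 17.5, 30.9 and 29.4 in Reactivated. Here the first step was a fall and the recall step a rise (difference of steps 3.42 ± 0.44, SE, limma adjusted p = 0.00111). Of the 5 others, 3 lay within chr2:98502391-98503129, chr2:98505160-98505368 and chr2:98506396-98507470, neighbours on 1 stretch of chromosome 2, and the remaining ones were chr9:35112799-35113174 and chr17:39979978-39985726 described above.

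The regions called between Reactivated and Early were finally placed against Basal and Late. These 2 groups are on neither side of that difference. Their libraries did enter the level filter and the fit's estimate of spread, so they are not independent of the calls. In the 1624 higher regions, the per-library medians were 1.23 to 1.65 RPKM in Basal, 0.582, 1.03 and 0.815 in Early, 1.45 to 1.81 in Late and 2.80, 2.17 and 2.24 in Reactivated. The Late mean was nearer to Reactivated than to Early in 70.0% of them, and the Basal mean in 45.2%. In the 717 lower regions, the per-library medians were 1.45 to 1.58 RPKM in Basal, 2.24, 1.73 and 1.95 in Early, 1.04 to 1.08 in Late and 0.660, 0.530 and 0.550 in Reactivated. Here Late was nearer to Reactivated in 61.4% and Basal in 18.5%. These shares were not taken over all tested regions, so they do not set the called regions apart from the rest.

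Late libraries, taken on day 5 without recall, stood apart from Basal at the lower regions. The median Late minus Basal difference was -0.42 (log2) over the 717 lower regions, against 0.28 over all tested regions, and 18.7% of them were positive, against 69.8%. Late was called lower than Basal in 219 of the 717 (30.5%), while 6.03% of all tested regions were so called. At the 1624 higher regions the median was 0.16, with 14.1% called higher in Late (23.9% of all tested) and 2.22% lower. Across all tested regions, Reactivated minus Early and Late minus Basal, which share no library, correlated at r = 0.176, and at 0.363 without Early 2. Reactivated and Late were collected on day 5 or later and Early and Basal on day 0, so that time since conditioning and recall cannot be told apart in the comparison of Reactivated with Early.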

How the data were processed

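ATAC-seq was measured in 14 libraries. The deposited values are RPKM per region. The authors' tools, per the submitters' processing notes, were Bowtie2 2.0, SAMtools, MACS2, DiffBind and DESeq2, with the mm9 build; roles and order are not stated there. How regions were merged across libraries was not given in the sources used here. RPKM values were whole multiples of 1 read in 100% of cases (within 0.01 of a read), which gave totals of 46134253 to 56251676 reads per library. For the share of a library's reads that fell in regions, the 95% Wilson half-width did not exceed 0.0119 percentage points (counting error only).

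The 172024 regions with a mean of at least 0.83 RPKM were transformed to log2(RPKM + 0.5), so fold changes of low regions are understated. They were fitted in limma 3.58.1 (R 4.3.3; trend, robust) over all 14 libraries, with the group as the term and Benjamini-Hochberg adjustment over all tested regions. Contrasts were Reactivated minus Early, Early minus Basal, Reactivated minus Late, Late minus Basal and the difference of the Reactivated minus Late and Early minus Basal steps. "Divided" values are each column over its median, times the mean of the 14 medians. Mean chi-square per region between libraries of a group was 5.12 to 20.7 in Early and 3.17 to 5.28 in Reactivated, where sampling noise gives 1, so no library was a duplicate.

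Named regions are the 12 largest log2 fold changes in each direction among called regions whose groups do not overlap and whose mean log2 level is above the median (chromosome 18 was left out of the naming), 6 in each direction for the divided values (all among the 12) and for the difference of steps (with every Reactivated minus Late library difference beyond every Early minus Basal one), and the 6 of highest mean level. Members, classes and rules were chosen with earlier results of these data known. The script was tested on simulated data. Figures were drawn with matplotlib 3.10.9. Coordinates are as in the deposited file, and no value column was left out.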

Additional observations from a re-analysis of the deposited data

Results flagged for a closer look

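In 7 of 78 groups of 4 libraries checked, 1 Basal or Late library lay far from the other 3, in each case at a named region. By chance about 1 in 20 such groups is flagged. Basal 1 had 4.32 RPKM at chr10:80635955-80636100 (the others 3.18 to 3.30), 4.74 at chr12:15854366-15854471 (others 1.40 to 1.75) and 2.28 at chr8:59363111-59363289 (others 0.104 to 0.414). Basal 2 had 4.08 at chr7:51697256-51697405 (others 2.84 to 2.84) and 0.725 at chr3:110691792-110692046 (others 0.0725 to 0.145). Basal 4 had 1.08 at chr10:18619022-18619175 (others 1.69 to 1.69). Late 3 had 2.33 at chr10:80635955-80636100 (others 3.71 to 3.96).

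The recall step and the first step differed at 8064 regions (4.69%; limma adjusted p below 0.05). Among named regions the recall step was the larger (log2) by 4.72 at chr2:98506396-98507470, 4.05 at chr9:35112799-35113174, 3.96 at chr17:39979978-39985726, 3.51 at chr2:98502391-98503129, 3.46 at chr2:98505160-98505368 and 3.42 at chr3:5860345-5860825. The difference was -2.76 at chr13:14990864-14991052, -2.69 at chr6:67750918-67751070, -2.68 at chr3:110691792-110692046, -2.66 at chr3:92226809-92227074, -2.66 at chr8:59363111-59363289 and -2.63 at chr15:19654330-19654521.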

How the results depend on the processing

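The counts below are regions higher and lower in Reactivated than in Early, then regions with a larger and a smaller recall step than first step, and in brackets their sum. As deposited they were 1624, 717, 1808 and 6256 (8064). Division by the column median gave 4395, 1706, 13251 and 10430 (23681), median-of-ratios scaling 3363, 1586, 12602 and 12034 (24636), quantile normalization 3482, 1258, 10483 and 10740 (21223), and each library's in-region read share as a covariate 2842, 1566, 10871 and 22036 (32907). A minimum of 2 RPKM, which tests fewer regions, gave 1189, 107, 286 and 746 (1032), and a fit of the 6 compared libraries 457 and 403. With Late averaged to 1 sample, which leaves the spread to the other groups, limma called 8, 5, 0 and 0 (0). Limma with voom weights on recovered reads, chosen after seeing the data, gave 4183, 502, 3191 and 12256 (15447). It took the place of 2 planned tests for counts, which were not run because the deposited unit is RPKM. Other pseudocounts and no filter stayed within 1.5 times.

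With single libraries left out, the counts ranged from 4 to 24885, from 2 to 4869, from 416 to 3144, from 1592 to 20072 and in sum from 2106 to 22876. On divided values, an alternative chosen after seeing the data, leaving out Early 1, 2 and 3 and then Reactivated 1, 2 and 3 gave 380, 8827, 1680, 157, 2387 and 1896 higher regions and 48, 8412, 398, 83, 588 and 439 lower ones. In the same order the larger recall steps numbered 12990, 10482, 12253, 8132, 10389 and 11221, the smaller ones 11951, 5782, 9925, 5737, 7323 and 9161, and their sums were 24941, 16264, 22178, 13869, 17712 and 20382. The median log2 fold change of Reactivated over Early ranged from -0.04 without Early 1 to 0.31 without Early 2, and was -0.02 with median-of-ratios scaling and -0.05 with the covariate. The share of reads in regions stayed higher in Reactivated, by 0.103 to 7.08 percentage points.

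Replicate numbers are shared by the labels, but deviations of same-numbered Early and Reactivated libraries correlated at 0.036, -0.127 and -0.028, so the numbers were not taken as pairs, and of the 6 libraries only Reactivated 1 correlated best with its own number. With the replicate block the counts were 274, 204, 955 and 3954 (4909).

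Of the 24 named regions, 23 lost their call with Late averaged, 4 with the share covariate and 3 each with quantile normalization, voom weights or the block, and 1 or 0 under the other whole-library settings. The 12 named step differences kept direction and call under every setting but Late averaged (limma adjusted p = 0.441), except chr17:39979978-39985726, which also lost it under quantile normalization (0.31, limma adjusted p = 0.0621). No call reversed its direction. Apart from fewer regions or libraries, the cause of these shifts was not tested. In the simulation, with few changed regions and a common spread for all libraries, 4-fold changes of a step were recovered in 32% of cases.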
